A study of Rattus norvegicus with 38 samples.

Results

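The comparison described here set the lungs of 7 sham-exposed rats of a low capacity runner line (LCR) against those of 7 sham-exposed rats of a high capacity runner line (HCR), 14 of the 38 animals of the series. The arrays were chosen by their labels and not by any measured value, and all 14217 genes with a usable probe set were tested. Both lines are of N:NIH stock and were bred for low or high intrinsic running capacity, so the comparison asks how lungs of the lines differ when no smoke has been given. All animals were female and 34 weeks old. The sham animals breathed room air on 5 days per week and gave their lungs after 12 weeks, beside 12 LCR and 12 HCR animals that breathed cigarette smoke on the same schedule. Each Affymetrix Rat Genome 230 2.0 array held RNA from about 25 mg of the lung of 1 animal. One of the LCR sham animals, 0445, has no strain, age or gender entry of its own, and the growth protocol covers it. Litter and breeding generation were not used here. Each p-value of a gene measures a difference against the spread between animals within groups. That spread was taken from all 38 animals, smoke-exposed ones included, and not from the 14 sham animals alone. Only 1 line of each kind was compared, so the animals are not replicates of the selection for running capacity. Array numbers run in blocks by group, and an effect of their order and of the line cannot be told apart.

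Intrinsic running capacity is what an untrained animal can run, and rat lines selected for it are known to differ in oxygen use, lipid metabolism and metabolic health. The lung is the entry point of oxygen, and it also holds a large resident immune population of alveolar macrophages and lymphocytes. Cytotoxic T cells and natural killer (NK) cells carry perforin and granzymes in granules, release them onto infected or altered cells, and are found in lung vessels and tissue at rest.

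Values are intensities on a linear scale. Differences are log2(intensity + 16) of LCR sham minus HCR sham with their standard error (SE), so a positive difference is higher in LCR, and the scale understates the change of dim genes. A gene was called when its adjusted p was below 0.05 (limma, Benjamini-Hochberg over all genes), and each adjusted p of a gene below is from that fit. Defining genes of lung were bright in both lines. Sftpc, the surfactant protein of alveolar type 2 cells, had an intensity of 10401 ± 277 (SD, n = 7) in HCR and 10225 ± 339 (SD, n = 7) in LCR. Scgb1a1 of club cells (0.03 ± 0.03), Ager of type 1 cells (-0.04 ± 0.06) and Pecam1 of endothelium (-0.17 ± 0.07) were not called either. Because a piece of whole lung was measured, fewer cells of a type and less RNA per cell cannot be told apart.

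Some arrays stood apart. On HCR sham 0432 the Actb control signal, which drops towards the 5' end as RNA degrades, was 2.06 log2 higher at the 3' end, against 0.63 to 0.83 on the other HCR sham arrays. Relative to the mean of all arrays, skeletal muscle genes averaged 3.93 log2 higher on HCR sham 0433 and fat cell genes 1.83 higher, and heart muscle genes averaged 3.25 higher on LCR sham 0442. None of 4 array measures (median, interquartile range, Actb and Gapdh 3' minus 5' differences) passed between the lines (exact permutation tests, two-sided, adjusted p from 0.261 to 0.948). Calls of named genes that ended without these arrays are listed after the comparison with smoke.

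Of the 14217 genes, 531 (3.73%) were called between the lines, 198 (1.39%) higher and 333 (2.34%) lower in LCR. At the 3.73% share a short gene list can hold 0 calls without differing from the rest of the genes. The called genes differed by a median of 0.33 log2 in size. An unadjusted p below 0.05 (limma) was found for 2478 of the 14217 genes in either direction. List counts at that threshold below are to be read against this number. At least 1.5-fold differences were called for 47 genes (0.331%) higher and 41 (0.288%) lower in LCR, and at least 2-fold differences for 15 (0.106%) higher and 6 (0.0422%) lower. For 91 called genes the arrays of the lines did not overlap at all, 26 with every LCR array above every HCR array and 65 with every LCR array below. Over all genes such separation was found for 34 (0.239%) above and 88 (0.619%) below. Higher calls made up 37.3% of the calls, and 20.7% (169 higher, 647 lower) with each array centred on its median, which moved the median difference of all genes from -0.01 to -0.04. The number of calls rested on single arrays, at 830 without HCR sham 0432 (371 higher, 459 lower) and 314 without HCR sham 0434 (132 higher, 182 lower). Without LCR sham 0445 the lower calls came to 206.

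**Figure D1:**
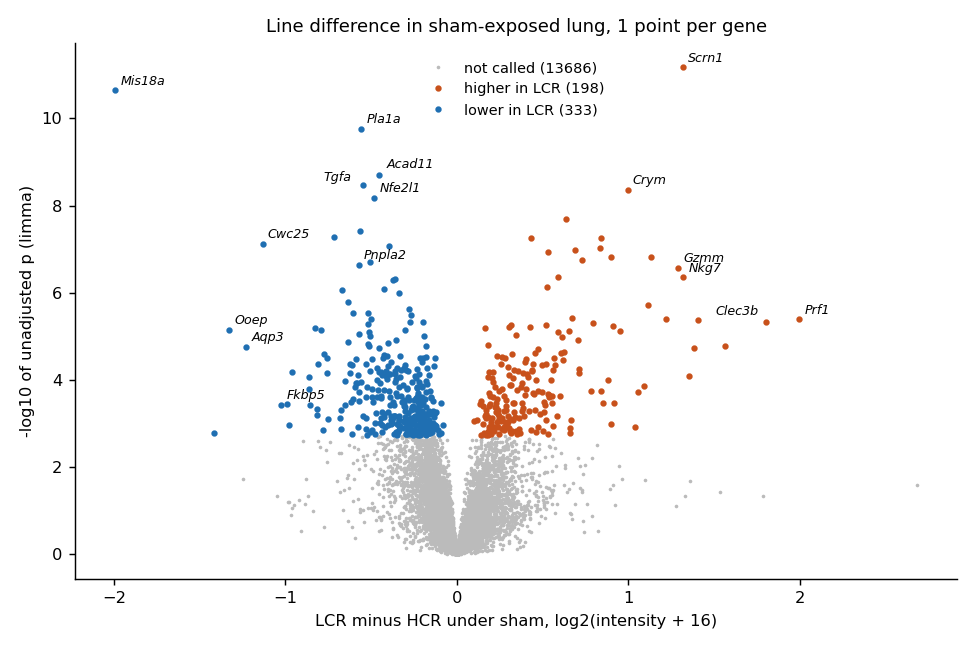
Each point is 1 gene, with the difference LCR sham minus HCR sham on log2(intensity + 16) on the horizontal axis and minus log10 of the unadjusted p (limma) on the vertical axis. Grey points were not called, 198 coloured points on the right were called higher in LCR and 333 on the left lower; granule genes such as Prf1 lie far to the right, and Mis18a and Scrn1 have the smallest p-values.

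The granule and receptor genes of cytotoxic lymphocytes had the largest share of members called higher in LCR among the 47 gene lists. Of 27 measured members of the cytotoxic lymphocyte and NK cell list, 16 rose and 0 fell, with a median difference of 0.61 against -0.01 over all genes. Among all genes 1.39% were called higher. The list had been written with earlier results of these arrays known, so its count describes it and is no independent support.

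Of the granule proteins, Prf1 encodes perforin, which forms pores in target cell membranes. Its intensity ran from 49.5 to 514 (median 97.3) on the HCR sham arrays and from 403 to 794 (median 666) on the LCR sham arrays. The next highest HCR array stood at 271, so 0432 alone reached into the LCR range. The line difference was 1.995 ± 0.37 (adjusted p = 0.00141), or 3.99-fold, and 2.29 without 0432. Gzmb, the granzyme that cleaves caspases in the target cell, ran from 27.2 to 187 (median 64.2) on the HCR sham arrays and from 129 to 246 (median 229.6) on the LCR sham arrays, a difference of 1.36 ± 0.31 (adjusted p = 0.00744). Gzmk ran from 36.6 to 170.2 (median 48.97) on the HCR sham arrays and from 138 to 294 (median 210.0) on the LCR sham arrays (difference 1.39 ± 0.28). Gzmm ran from 52.5 to 190.0 (median 103) on the HCR sham arrays and from 186 to 347 (median 269.7) on the LCR sham arrays (difference 1.29 ± 0.20). In each of these granzymes the only HCR array that reached the lowest LCR array was again 0432. Nkg7, a protein of the granule membrane, ran from 50.1 to 224 (median 89.8) on the HCR sham arrays and from 179.6 to 356 (median 269) on the LCR sham arrays, a difference of 1.32 ± 0.22. Gzma, a further granzyme, was not called, at 0.82 ± 0.26 (adjusted p = 0.0661), and the differences of Gzmf (0.01) and Gzmn (-0.02) were near 0.

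Surface receptors of NK and cytotoxic T cells rose too. Ncr1, the activating receptor NKp46 of NK cells, was the 1 member of the list whose lines did not overlap, with HCR arrays from 7.15 to 19.04 (median 13.03) and LCR arrays from 23.6 to 52.6 (median 35.4). Its difference was 0.84 ± 0.13 (adjusted p = 8.7e-05). Klrg1, a receptor of mature effector cells, ran from 8.0 to 44.6 (median 14.4) on the HCR sham arrays and from 34.3 to 88.7 (median 54.3) on the LCR sham arrays and differed by 1.13 ± 0.17 (adjusted p = 0.00011). Klrd1, which encodes CD94, the partner of the NKG2 receptors, ran from 16.8 to 89.6 (median 36.5) on the HCR sham arrays and from 72.9 to 143 (median 105) on the LCR sham arrays and differed by 1.12 ± 0.20. For both genes HCR sham 0432 was the only HCR array to reach the LCR range. Klrk1, which encodes NKG2D (0.4996 ± 0.12, adjusted p = 0.0126), and Klre1 (0.20 ± 0.05, adjusted p = 0.0186), a receptor at intensities of 10.5 or less, rose by less. The call of Klrk1 ended without HCR sham 0433 and LCR sham 0442 (0.42, adjusted p = 0.074) and that of Klre1 without LCR sham 0445 (adjusted p = 0.0632). Klrb1a was at 0.94 ± 0.34 and not called (adjusted p = 0.122), and Klrc1, Klrc2 and Klrb1b had differences between -0.06 and 0.08.

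The chemokine, cytokine receptor and transcription factor of these cells followed. Ccl5, the chemokine RANTES stored by effector T and NK cells, ran from 198 to 1204 (median 294) on the HCR sham arrays and from 902 to 1714 (median 1356) on the LCR sham arrays and differed by 1.56 ± 0.31 (adjusted p = 0.00318). Il2rb, the shared beta chain of the interleukin 2 and 15 receptors, ran from 26.6 to 106 (median 54.2) on the HCR sham arrays and from 81.1 to 183 (median 110.1) on the LCR sham arrays and differed by 0.91 ± 0.17 (adjusted p = 0.00159). Apart from 0432, every HCR array of both genes was below every LCR array. Eomes, a T-box factor of cytotoxic cells, differed by 0.44 ± 0.10 (adjusted p = 0.00663), Txk, a kinase of T and NK cells, by 0.61 ± 0.13, and Cst7, the inhibitor of the cathepsins that activate granzymes, by 0.55 ± 0.13. Cd8a, one chain of the co-receptor of cytotoxic T cells, rose by 0.78 ± 0.19 (adjusted p = 0.0124), while Cd8b, the other chain, was at -0.19 (adjusted p = 0.281).

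HCR sham 0432, the array with the signs of RNA degradation, was the highest HCR array of the list as a whole, with a list mean of 0.30 log2, against -0.65 on HCR sham 0435, the lowest, and 0.17 to 0.63 over the LCR arrays. Summed intensity over the 27 members was 860 to 3600 (median 1261) in HCR and 2901 to 5113 (median 4187) in LCR. Leaving out the highest HCR array of the list necessarily widens its line difference. Without 0432, 17 members were called, with Gzmb at 1.56, Nkg7 at 1.505 and Ccl5 at 1.81. Over the fits that left out 1 array, 15 to 17 members were called, against 11 in the fit of the 14 sham arrays and 12 with the dimmest genes left out.

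**Figure D2:**
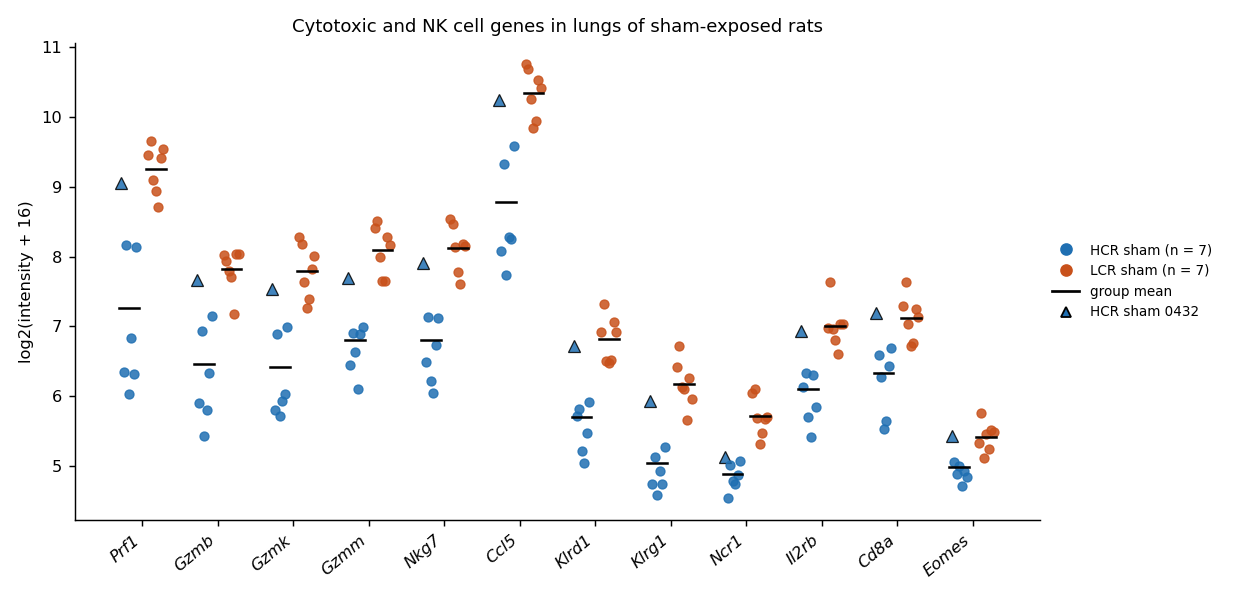
Log2(intensity + 16) of 12 cytotoxic genes on each of the 7 HCR sham and 7 LCR sham arrays; points are arrays, bars are group means and the triangle is HCR sham 0432. The triangle lies among the LCR points for Prf1, the granzymes and Ccl5, while the other HCR arrays lie below the LCR arrays, and Ncr1 shows no overlap.

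Because these genes rose together, the start regions of the granule genes are shown, taken from RefSeq (GRCr8), which held a promoter for 11 of the 16 called members. Each line gives the 250 bases before to 50 after the start, 5' to 3' on the gene's strand, for perforin and for the called granzymes in which a searched motif was found. Capitals mark a motif.
Prf1, chr20:29788790-29789089, plus strand: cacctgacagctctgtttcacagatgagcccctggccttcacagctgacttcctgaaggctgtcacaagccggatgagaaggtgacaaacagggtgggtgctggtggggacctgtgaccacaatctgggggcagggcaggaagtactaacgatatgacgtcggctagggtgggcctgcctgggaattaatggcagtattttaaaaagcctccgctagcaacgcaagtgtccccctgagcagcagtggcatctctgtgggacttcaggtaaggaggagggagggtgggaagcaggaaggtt
Gzmb, chr15:34462420-34462719, minus strand: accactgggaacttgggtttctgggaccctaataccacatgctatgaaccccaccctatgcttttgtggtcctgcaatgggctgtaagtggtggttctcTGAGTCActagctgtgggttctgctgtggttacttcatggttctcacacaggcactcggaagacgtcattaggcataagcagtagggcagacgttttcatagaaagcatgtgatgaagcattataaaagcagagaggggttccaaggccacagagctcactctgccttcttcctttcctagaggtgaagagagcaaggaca
Gzmm, chr7:10667207-10667506, minus strand: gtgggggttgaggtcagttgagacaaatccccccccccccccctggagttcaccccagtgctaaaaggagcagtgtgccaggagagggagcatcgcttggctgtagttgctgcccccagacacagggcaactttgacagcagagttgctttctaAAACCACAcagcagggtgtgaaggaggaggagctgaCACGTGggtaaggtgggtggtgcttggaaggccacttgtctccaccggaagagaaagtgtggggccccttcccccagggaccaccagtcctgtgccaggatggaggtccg
Gzmb held the AP-1 letters TGACTCA, read on the other strand, from base 100 of the window, found in 1 of 11 called members and in 3.8% of the 11733 promoters of measured genes. Gzmm held the RUNX letters TGTGGTTT, also on the other strand, from base 155 (1 of 11, against 1.24%) and the E-box letters CACGTG from base 191 (1 of 11, against 8.92%). The motifs shown do not overlap. Both strands were searched, and Prf1 held none of the 9 motifs. The others were the flanked E-box CCACGTGG, which contains the E-box, the D-box TTATGTAA, the CRE TGACGTCA and the DR1 element, in 0.878%, 0.528%, 2.86% and 0.0341% of all promoters and in 0 of the 11. The T-box letters TCACACCT were in 0 of 11 called members and 0.938% of all. The interferon response element was in the windows of Klrk1 and Eomes and in 2.99% of all promoters.

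Fewer of the other lymphocyte markers were called. Of 21 T cell genes 4 rose, against 1.39% over all genes, and 0 fell, with a median of 0.15, and 9 had an unadjusted p below 0.05 with a positive difference. The 4 were Sh2d1a (0.84 ± 0.12, adjusted p = 6.6e-05), the signalling adaptor SAP of T and NK cells, Cd247 (0.67 ± 0.12), the zeta chain of the T cell receptor that NK cells also use, and the kinases Lck (0.56 ± 0.12) and Zap70 (0.53 ± 0.13). Sh2d1a ran from 8.49 to 33.1 (median 12.97) on the HCR sham arrays and from 29.5 to 60.7 (median 41.1) on the LCR sham arrays, and only 0432 among the HCR arrays reached the LCR range. The CD3 chain genes did not pass: Cd3e was at 0.32 (adjusted p = 0.162), Cd3d at 0.42 (adjusted p = 0.0579) and Cd3g at 0.48 (adjusted p = 0.0643). Cd4, the helper co-receptor, was at 0.06 (adjusted p = 0.826). Without HCR sham 0432, HCR sham 0433 and LCR sham 0442 the T cell calls came to 9, without HCR sham 0432 alone to 8, and in a fit of the 14 sham arrays alone to 2.

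Among B and plasma cell genes, Blk, a kinase of the B cell receptor, rose (0.496 ± 0.11, adjusted p = 0.00565). It was 1 of 15 measured, against 1.39% over all genes. Ighl2, listed as an immunoglobulin heavy chain gene, ran from 570.2 to 2028 (median 1473) on the HCR sham arrays and from 1607 to 4865 (median 2925) on the LCR sham arrays and rose by 1.09 ± 0.26 (adjusted p = 0.0108). Its ranges overlapped. Irf8, a factor of dendritic cells and monocytes that B cells also use, rose by 0.46 ± 0.11 (adjusted p = 0.00852). It was 1 of 12 in the monocyte and dendritic cell list, against 1.39% over all genes. Mnda rose by 0.66 ± 0.19 (adjusted p = 0.0459), but its second probe set was at -0.45 (adjusted p = 0.0579). The thymus and lymph node list, which could mark lymphoid tissue in the piece taken, had 0 of 6 called (2 with a positive and 1 with a negative difference at an unadjusted p below 0.05). Its B cell chemokine Cxcl13 was at 0.96 ± 0.39 (adjusted p = 0.174). The part of lymphoid tissue or lymphocyte number in these results was not tested.

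Interferon genes contributed 2 of 29 measured, both higher in LCR and both without overlap. Over all genes 1.39% were called higher and 0.239% had every LCR array above every HCR array. Ifit1, an antiviral protein that binds foreign RNA, ran from 10.8 to 88.4 (median 59.03) on the HCR sham arrays and from 93.5 to 191 (median 112) on the LCR sham arrays and rose by 1.06 ± 0.25 (adjusted p = 0.0127). HCR sham 0433 was its low array, and without HCR sham 0432, HCR sham 0433 and LCR sham 0442 the call ended (0.82, adjusted p = 0.0631). Ifi27 ran from 2892 to 3835 (median 3425) on the HCR sham arrays and from 3866 to 4989.6 (median 4272) on the LCR sham arrays, a difference of 0.37 ± 0.10 (adjusted p = 0.0296) whose call ended without 0434, 0439, 0445 or 0446. Ifitm10, a membrane protein of the family named for interferon induction, ran from 16.7 to 77.3 (median 21.4) on the HCR sham arrays and from 68.9 to 139.9 (median 117) on the LCR sham arrays and rose by 1.41 ± 0.26. Only 0432 of the HCR arrays reached its LCR range. The list's median was 0.11.

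Of 23 complement and acute phase genes, Serpina1 and Hp were called higher in LCR (1.39% over all genes) and 0 lower, with a median of -0.04 and 4 negative against 2 positive differences at an unadjusted p below 0.05. Serpina1, the elastase inhibitor alpha-1-antitrypsin, ran from 21.95 to 83.98 (median 35.9) on the HCR sham arrays and from 75.3 to 180.4 (median 109) on the LCR sham arrays and rose by 1.22 ± 0.22 (adjusted p = 0.00141). The ranges overlapped at 1 LCR array, 0444. Hp, the haemoglobin-binding haptoglobin, rose by 0.66 ± 0.19 (adjusted p = 0.0407) and the chemokine Cxcl14 by 0.90 ± 0.25 (adjusted p = 0.0353). Cxcl14 ran from 308 to 518 (median 449.7) on the HCR sham arrays and from 317 to 1038 (median 898) on the LCR sham arrays, and LCR sham 0444 was the 1 LCR array inside the HCR range. These last calls were fragile: that of Hp ended without any 1 array other than 0432, 0434, 0435, 0443 or 0445, and that of Cxcl14 without any 1 array other than 0432, 0433, 0436, 0438 or 0444. Neutrophil genes had 0 of 11 called (1 with a negative difference at an unadjusted p below 0.05), MHC class I genes 0 of 18 (2 positive, 2 negative) and MHC class II genes 0 of 8 (1 positive, 3 negative). The cytokine and chemokine list of 42 had Cxcl14 and Ccl5 higher and Ccl6 lower (-0.28 ± 0.08), with a median of 0.0020. Over all genes 3.73% were called in either direction. Il6 (-0.0022) and Tnf (-0.04) were not called.

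Macrophage genes leaned the other way. Of 19 measured, 5 fell in LCR (background 2.34%) and 0 rose, with a median of -0.39, and 14 had a negative difference at an unadjusted p below 0.05. Over all 14217 genes 2478 had such a p (limma) in either direction. Pparg, the nuclear receptor needed for alveolar macrophages and fat cells, ran from 77.2 to 124 (median 103) on the HCR sham arrays and from 50.5 to 82.6 (median 63.6) on the LCR sham arrays and differed by -0.46 ± 0.10 (adjusted p = 0.00637). Chi3l1, a chitinase-like protein of macrophages, ran from 875 to 1889.9 (median 1471) on the HCR sham arrays and from 489 to 1197 (median 683) on the LCR sham arrays and differed by -0.81 ± 0.22 (adjusted p = 0.0276). Itgax, the integrin CD11c, ran from 103 to 212 (median 198) on the HCR sham arrays and from 79.7 to 117 (median 105) on the LCR sham arrays and differed by -0.68 ± 0.20 (adjusted p = 0.042). All of these groups overlapped; of the Itgax HCR arrays, 0438 alone fell into the LCR range. The mannose receptor Mrc1 differed by -0.43 ± 0.13 and the carbonic anhydrase Car4, which capillary endothelium also makes, by -0.48 ± 0.13. Cd68 (-0.38, adjusted p = 0.26), Cd163 (-0.47, adjusted p = 0.0779) and C1qb (-0.45, adjusted p = 0.0512) did not pass. List means ran from -0.49 to 0.10 in HCR and from -0.74 to -0.40 in LCR.

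These macrophage calls depended on the arrays and the scaling. Pparg kept its call under every alternative, but the list count ran from 1 without 0435, 0441 or 0445 to 9 with median-centred arrays. It was 2 without 0433, 0434, 0438, 0440 or 0442, 3 without 0436 or 0443, and 2 without HCR sham 0433 and LCR sham 0442 together. The call of Chi3l1 ended without 0434, 0435, 0438, 0440, 0441, 0443 or 0445, that of Itgax without any 1 array other than 0438 or 0446, that of Mrc1 without any 1 array other than 0432, 0439, 0444 or 0446 and that of Car4 without any 1 array other than 0432, 0436, 0440 or 0444.

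Of 25 lysosomal genes 4 were called lower, against 2.34% over all genes, and 0 higher, with a median of -0.10. The count was 1 without LCR sham 0441 or 0445, and 2 without 0434, 0436, 0440 or 0442, without HCR sham 0433 and LCR sham 0442 together, and in the fit of the 14 sham arrays. The aminopeptidase cathepsin Ctsh, made by type 2 cells and macrophages, ran from 3559 to 4762 (median 3959) on the HCR sham arrays and from 3036 to 3809 (median 3291) on the LCR sham arrays and differed by -0.29 ± 0.06 (adjusted p = 0.00663). Ctss, the cathepsin that cuts the invariant chain, differed by -0.37 ± 0.09, and the cholesterol carrier Npc2 by -0.21 ± 0.06. The galactosidase Gla differed by -0.22 ± 0.06 (adjusted p = 0.0443). The Ctss call ended without 0441 or 0445, that of Npc2 without any 1 array other than 0432, 0433, 0439, 0443, 0444 or 0446 and that of Gla without any 1 array other than 0433, 0435, 0439 or 0443. Abca1, which exports cholesterol from macrophages, ran from 273 to 851 (median 745) on the HCR sham arrays and from 224 to 354 (median 253) on the LCR sham arrays and differed by -0.98 ± 0.27 (adjusted p = 0.0362). HCR sham 0432 and 0433 lay inside the LCR range, the call ended without any 1 array other than 0432, 0433, 0441 or 0443, and the gene's other probe sets were at -0.01, -0.07 and -0.56 with none called.

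Of 18 genes responsive to glucocorticoids, 5 were called lower in LCR, against 2.34% over all genes, and 0 higher, with a median of -0.29. Fkbp5, a chaperone of the glucocorticoid receptor induced by it, had HCR arrays from 191 to 589 (median 396) and LCR arrays from 135 to 175 (median 153). Every LCR array was below every HCR array, and the difference was -1.02 ± 0.26 (adjusted p = 0.0187). Tsc22d3, the leucine zipper GILZ, ran from 926 to 2567 (median 1819.8) on the HCR sham arrays and from 1061 to 1579 (median 1267) on the LCR sham arrays (-0.53 ± 0.15, adjusted p = 0.0411). Klf9 differed by -0.34 ± 0.10 and Klf15 by -0.48 ± 0.14, both transcription factors induced by the receptor. Pdk4, the kinase that shuts off pyruvate dehydrogenase, ran from 184 to 565 (median 303) on the HCR sham arrays and from 134 to 219 (median 180.3) on the LCR sham arrays (-0.86 ± 0.22, adjusted p = 0.0191). Tsc22d3, Klf9, Klf15 and Pdk4 overlapped between the lines. Not called were Dusp1 (-0.37), Per1 (-0.20), Sgk1 (-0.02) and the receptor gene Nr3c1 (0.10).

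HCR sham 0434 was the highest array of Fkbp5, Tsc22d3, Klf9 and Klf15, and without it none of the 5 calls was kept. The list had 2 calls without 0435, 0436, 0442, 0444 or 0445 and 3 without 0439, 0441 or 0446. The list also had 1 call in the fit of the 14 sham arrays and 4 without HCR sham 0433 and LCR sham 0442. The Fkbp5 call ended without 0434 or 0435, and that of Pdk4 without 0433 or 0434. The Tsc22d3 call ended without any 1 array other than 0432, 0433, 0443 or 0446, that of Klf9 without 0432, 0434, 0436, 0442, 0444, 0445 or 0446 and that of Klf15 without any 1 array other than 0432, 0433, 0438 or 0440. Immediate early genes had 0 of 24 called (3 with a negative difference at an unadjusted p below 0.05), and circadian clock genes 0 of 19 (1 positive, 1 negative).

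Genes of fuel use were lower in LCR in a few places, and no respiratory chain gene was called, against 3.73% of all genes called in either direction. Of 49 respiratory chain subunits 0 passed (3 with a negative difference at an unadjusted p below 0.05, limma), with differences from -0.20 to 0.08 and a median of -0.03, and mitochondrial biogenesis had 0 of 23 (3 negative). Ppargc1a, the coactivator of mitochondrial biogenesis, was at -0.09 ± 0.10 (adjusted p = 0.713) and Tfam, the mitochondrial transcription factor, at -0.05 ± 0.05 (adjusted p = 0.618). Citrate cycle genes had 3 of 20 lower, against 2.34% over all genes. They were Pdk4, Pdha1 of the pyruvate dehydrogenase complex (-0.23 ± 0.05, adjusted p = 0.0108) and Suclg2 (-0.17 ± 0.05, adjusted p = 0.033). The second Pdha1 probe set was at -0.07. Suclg2 lost its call without 0433, 0434, 0436, 0438, 0441, 0445 or 0446. The citrate cycle count was 1 without HCR sham 0433 or 0434, and none of the 3 calls was kept in the fit of the 14 sham arrays.

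Fatty acid oxidation had 2 of 32 lower, against 2.34% over all genes. The median was -0.14, with 9 negative differences at an unadjusted p below 0.05 (limma). Ucp2, an uncoupling protein of the mitochondrial inner membrane, ran from 718 to 1026 (median 828) on the HCR sham arrays and from 625 to 789 (median 706) on the LCR sham arrays and differed by -0.31 ± 0.07 (adjusted p = 0.00628). Acot1, an acyl-CoA thioesterase induced through PPAR-alpha, ran from 9.09 to 109 (median 40.2) on the HCR sham arrays and from 4.63 to 22.9 (median 14.1) on the LCR sham arrays and differed by -0.99 ± 0.25 (adjusted p = 0.0186). Both genes overlapped between the lines, and the Acot1 call ended without 0434, 0435 or 0438, without HCR sham 0433 and LCR sham 0442 (-0.91, adjusted p = 0.0687) and in the fit of the 14 sham arrays. The carnitine palmitoyltransferases, which carry fatty acids into mitochondria, were not called, Cpt1a at -0.30 ± 0.11 (adjusted p = 0.111) and Cpt1b at -0.25 ± 0.34 (adjusted p = 0.769). HCR sham 0433 and LCR sham 0442, the arrays with muscle genes, were the highest Cpt1b arrays of their groups at 317 and 181.

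Some lipid storage and uptake genes fell too. Pnpla2, the adipose triglyceride lipase, ran from 862 to 1469 (median 1161) on the HCR sham arrays and from 592 to 878 (median 721) on the LCR sham arrays and differed by -0.57 ± 0.09 (adjusted p = 0.00015). LCR sham 0441 alone reached the HCR range. Dgat2, which makes triglyceride, differed by -0.53 ± 0.14 (adjusted p = 0.0297). Pnpla2 and Dgat2 were the 2 called of 19 fat cell genes (median -0.43), against 2.34% lower over all genes. HCR sham 0433, with the high fat cell list mean, was the highest Dgat2 array at 609; Pnpla2 was -0.49 without 0433 and LCR sham 0442 (adjusted p = 0.00212), and Dgat2 was -0.37 (adjusted p = 0.131). Gpihbp1, which holds lipoprotein lipase on capillary endothelium, ran from 413 to 756 (median 623) on the HCR sham arrays and from 208 to 402 (median 336) on the LCR sham arrays, with every LCR array below every HCR array and a difference of -0.82 ± 0.21 (adjusted p = 0.0217). That call ended without 0442 or 0446, and that of Dgat2 without 0433, 0434, 0436, 0442, 0443, 0444 or 0445.

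Trarg1, a regulator of glucose transporter trafficking, ran from 60.02 to 87.6 (median 74.9) on the HCR sham arrays and from 41.8 to 51.1 (median 47.6) on the LCR sham arrays, with no overlap (-0.504 ± 0.08, adjusted p = 0.00013). Acad11, an acyl-CoA dehydrogenase outside the lists, ran from 135 to 189 (median 171) on the HCR sham arrays and from 114 to 128 (median 117) on the LCR sham arrays, with no overlap either (-0.45 ± 0.06, adjusted p = 7.1e-06). Of 20 glycolysis and lactate genes 2 were lower, against 2.34% over all genes. They were Slc16a1, the lactate carrier MCT1 (-0.44 ± 0.10), and Pfkl, the liver type phosphofructokinase (-0.35 ± 0.10). The Pfkl call ended without any 1 array other than 0433, 0439, 0443 or 0444. Hypoxia and angiogenesis genes had 0 of 29 called (2 positive and 2 negative at an unadjusted p below 0.05). Vegfa was at 0.14 ± 0.07 (adjusted p = 0.272) and Hif1a at 0.01 ± 0.06 (adjusted p = 0.969). Nos3, the endothelial nitric oxide synthase, was at 0.20 ± 0.11 (adjusted p = 0.376).

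**Figure D3:**
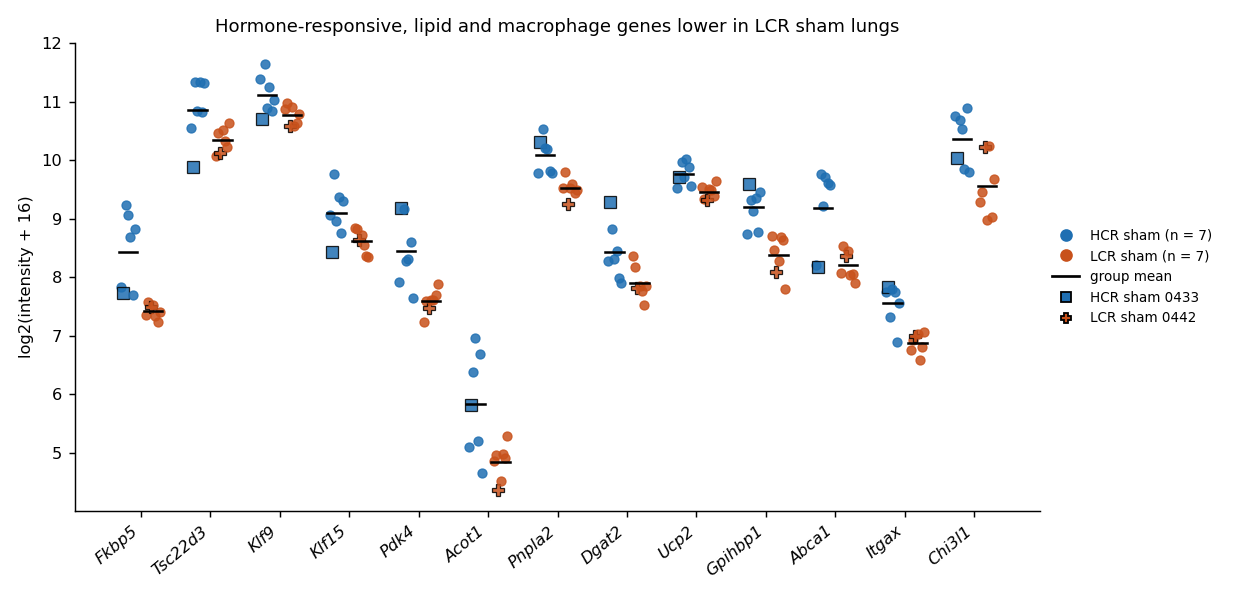
Log2(intensity + 16) of 13 glucocorticoid, fuel and macrophage genes called lower in LCR on each of the 7 HCR sham and 7 LCR sham arrays; points are arrays, bars are group means, the square is HCR sham 0433 and the plus sign LCR sham 0442. Fkbp5 and Gpihbp1 show no overlap, while Abca1, Tsc22d3 and Klf9 have HCR arrays inside the LCR range.

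Epithelial transport genes gave some of the larger falls. Aqp3, a channel for water and glycerol in airway basal cells, ran from 8.91 to 81.4 (median 65.2) on the HCR sham arrays and from 8.83 to 15.5 (median 10.8) on the LCR sham arrays and differed by -1.23 ± 0.25 (adjusted p = 0.00319), the lower part being near the dim end of the array. HCR sham 0439 alone lay inside the LCR range. Scnn1g, the gamma subunit of the epithelial sodium channel that clears alveolar fluid, ran from 397 to 666 (median 514) on the HCR sham arrays and from 267 to 433 (median 354) on the LCR sham arrays and differed by -0.49 ± 0.10 (adjusted p = 0.00471). Scnn1a, its alpha subunit, differed by -0.47 ± 0.11 (adjusted p = 0.015), a call that ended without 0434, and Scnn1b, its beta subunit, was at -0.25 (adjusted p = 0.131). With Car4, 4 of 18 channel and water transport genes fell, against 2.34% over all genes, and 0 rose. The count was 2 without HCR sham 0434 and in the fit of the 14 sham arrays.

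Of 15 type 2 cell genes 2 fell, against 2.34% over all genes, with a median of -0.13. They were Sftpd, the surfactant protein that binds microbes (-0.21 ± 0.06, adjusted p = 0.0345), and Fasn, fatty acid synthase (-0.30 ± 0.08, adjusted p = 0.0238). The Sftpd call ended without any 1 array other than 0432, 0433, 0439, 0443, 0444 or 0446 and that of Fasn without 0433, 0434, 0436, 0440, 0442 or 0445. Pigr, which carries antibodies across epithelium, differed by -0.21 ± 0.04 (adjusted p = 0.0053). Ciliated cell genes had 11 of 11 positive differences, a median of 0.33 and 0 calls (1 positive at an unadjusted p below 0.05).

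Detoxification genes were lower where called. In the NRF2 and glutathione list of 39, Mgst2, a microsomal glutathione transferase, ran from 1007 to 1293 (median 1264) on the HCR sham arrays and from 881 to 1088 (median 963) on the LCR sham arrays and differed by -0.34 ± 0.06 (adjusted p = 0.00046). Txn1, thioredoxin, ran from 5413 to 5605 (median 5508) on the HCR sham arrays and from 4934 to 5162 (median 5008) on the LCR sham arrays, a small difference of -0.13 ± 0.03 with no overlap (adjusted p = 0.00588). Cat, catalase, differed by -0.22 ± 0.06, a call that ended without 0434, 0438, 0441, 0442 or 0443. These were the 3 called of 39, against 2.34% lower over all genes. The list's median was -0.09 and 0 rose. In the xenobiotic list of 28, the monooxygenase Fmo5 ran from 279.9 to 347 (median 319) on the HCR sham arrays and from 184 to 259 (median 193) on the LCR sham arrays with no overlap (-0.57 ± 0.13, adjusted p = 0.00716), the sulfotransferase Sult1a1 differed by -0.52 ± 0.12 and the efflux pump Abcb1a by -0.44 ± 0.11. Fmo5, Sult1a1 and Abcb1a were the 3 called of 28, against 2.34% lower over all genes, and the list's median was 0.03. The call of Abcb1a ended without 0434. Cyp1a1, the P450 that smoke induces, was at 0.35 ± 0.16 (adjusted p = 0.234), with a highest intensity of 16.4 in HCR and 54.7 in LCR. Hmox1 (-0.18 ± 0.31) and Sod3 (-0.12 ± 0.09) were not called.

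Few vessel, matrix and nerve genes were called. Lyve1, a hyaluronan receptor of lymphatic endothelium, ran from 1930.0 to 3050.0 (median 2485) on the HCR sham arrays and from 1442 to 1866 (median 1789.9) on the LCR sham arrays, with every LCR array below every HCR array (-0.52 ± 0.09, adjusted p = 0.00117), and its second probe set was at -0.53. Vcam1, the adhesion molecule of activated endothelium, rose by 0.22 ± 0.06 (adjusted p = 0.0444), a call that ended without any 1 array other than 0438, 0439 or 0441. Those were the 2 called of 29 endothelial genes, against 3.73% of all genes called in either direction. Clec3b, tetranectin, a fibroblast product, ran from 28.01 to 465 (median 190.1) on the HCR sham arrays and from 351 to 746 (median 534) on the LCR sham arrays and rose by 1.80 ± 0.34; HCR sham 0433 was the only HCR array in the LCR range, and a second probe set gave 1.42.

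Col15a1, a basement membrane collagen, rose by 0.57 ± 0.12 (adjusted p = 0.00565) and Postn, periostin, differed by -0.28 ± 0.08 (adjusted p = 0.0389). They were the 2 called of 36 matrix genes, against 3.73% of all genes called in either direction. The Postn call ended without any 1 array other than 0432, 0436, 0440, 0444 or 0446. Scn7a, an atypical sodium channel of glia and other cells, ran from 455 to 667 (median 586) on the HCR sham arrays and from 710.4 to 951 (median 807) on the LCR sham arrays with no overlap (0.52 ± 0.10, adjusted p = 0.00159). With Gfra3, given below, 2 of 16 nerve and neuroendocrine genes rose, against 1.39% over all genes. That list's median was 0.0042. Moxd1, a monooxygenase-like protein, ran from 249 to 453 (median 308) on the HCR sham arrays and from 83.5 to 252 (median 159) on the LCR sham arrays and differed by -0.96 ± 0.21 (adjusted p = 0.00667), and the stress protein Nupr1 differed by -0.86 ± 0.20. Only HCR sham 0433 of the Moxd1 HCR arrays reached the LCR range. Serpinb1a, an inhibitor of neutrophil elastase, differed by -0.34 ± 0.09 without overlap, Cst3, cystatin C, by -0.23 ± 0.05, and the pericyte proteoglycan Cspg4 by -0.29 ± 0.08. Cspg4 was the 1 called of 20 smooth muscle and pericyte genes, against 2.34% lower over all genes. That list had 17 positive differences and a median of 0.17. The call of Serpinb1a ended without any 1 array other than 0432, 0436, 0439, 0440, 0444 or 0446 and that of Cspg4 without any 1 array other than 0433, 0434, 0439, 0440 or 0441. Heart muscle genes had 0 of 23 called (0 at an unadjusted p below 0.05) and skeletal muscle genes 0 of 18 (3 negative).

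Among the remaining genes with large differences or small p-values, Crxos1, a homeobox gene, ran from 25.4 to 243 (median 100.1) on the HCR sham arrays and from 10.9 to 67.7 (median 22.6) on the LCR sham arrays and differed by -1.42 ± 0.42 (adjusted p = 0.0461). Its ranges overlapped, and its call ended without any 1 array other than 0432, 0435 or 0441. Kcnmb4, a subunit of calcium-activated potassium channels, differed by -0.81 ± 0.17 (adjusted p = 0.00559), and Slc47a1, an exporter of organic cations, by -0.67 ± 0.18. Cdhr1, a cadherin known from photoreceptors, rose by 0.90 ± 0.14 (adjusted p = 0.00011), Pcp4l1 by 0.86 ± 0.22, and Gfra3, a receptor of glial growth factors, by 0.33 ± 0.09. LOC100911946 differed by -0.57 ± 0.08 with no overlap, and Sfta2, a surfactant-associated protein, by -0.51 ± 0.15. Calls ended for Slc47a1 without 0434, 0438 or 0445, for Pcp4l1 without 0434 or 0436, for Gfra3 without 0433, 0434, 0436, 0441 or 0442 and for Sfta2 without any 1 array other than 0432, 0434, 0439, 0440 or 0444.

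**Figure D4:**
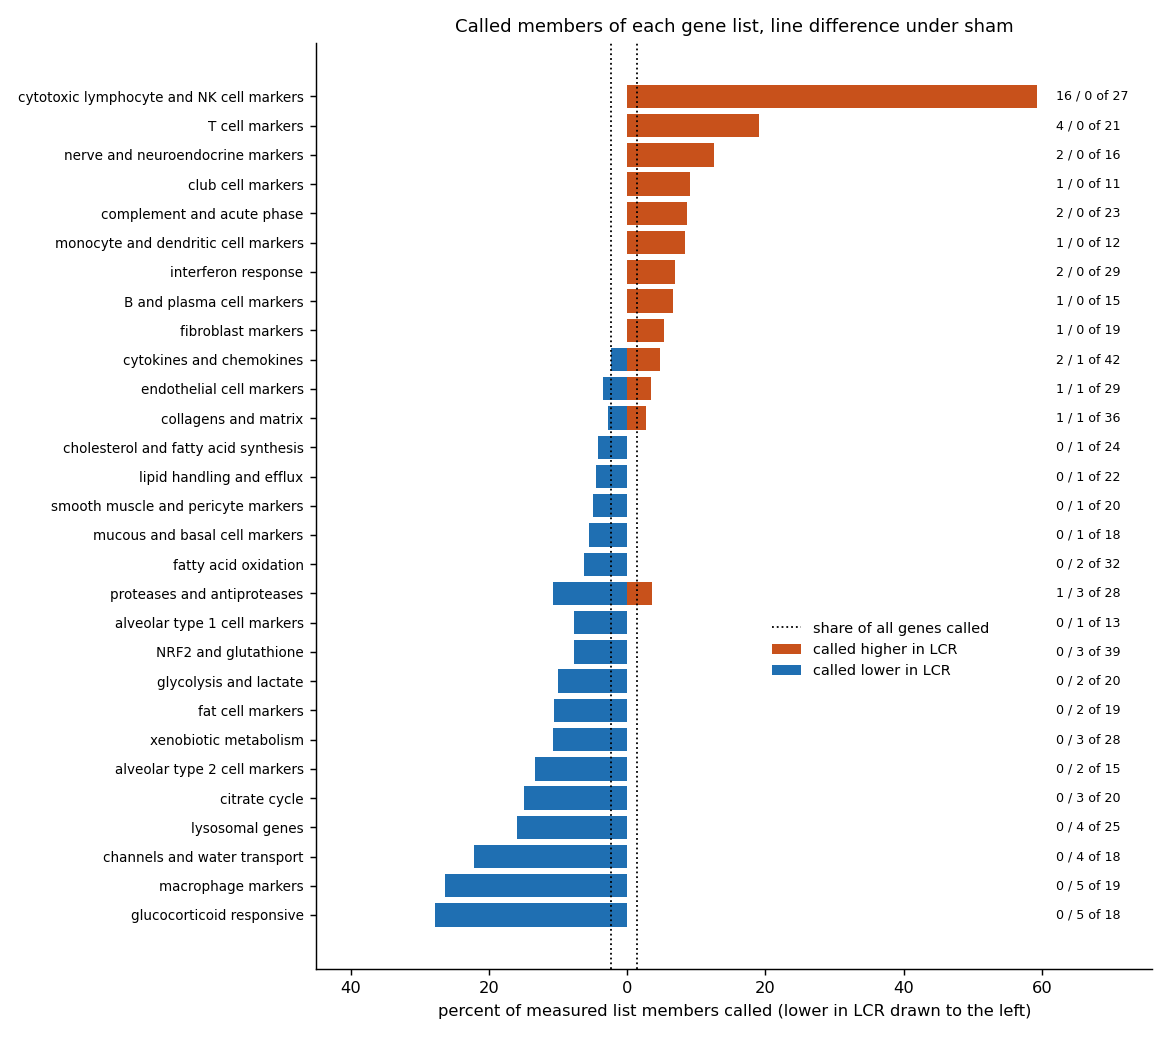
Bars give the percent of measured list members called higher (to the right) and lower (to the left) in LCR under sham. Only gene lists with at least 1 called member are drawn. Dotted lines mark the shares of all genes, 1.39% higher and 2.34% lower. The cytotoxic list has the longest bar to the right, with 16 of 27. The respiratory chain list, with 0 of 49 called, is not drawn.

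Genes that also differed between other animals of the lines were counted in the smoke groups, which share no array with the sham groups. Both tests took a gene's spread from the same fit over all 38 arrays, so their calls are not independent. Under smoke 898 genes (6.32%) were called between the lines, 656 (4.61%) higher and 242 (1.7%) lower in LCR. Of the 198 genes higher under sham, 57 (28.8%) were also called higher under smoke, and of the 333 lower, 38 (11.4%) were also called lower. These 95 genes made up 10.6% of the smoke calls. Another 10 of the 333 were called higher under smoke, Fasn, Fetub and Sec14l2 among them.

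Mis18a, a centromere protein needed to load CENP-A, was the largest fall under sham. Its intensity ran from 86.98 to 189 (median 168) on the HCR sham arrays and from 12.2 to 80.7 (median 16.2) on the LCR sham arrays, and from 88.7 to 168 (median 100.5) on the HCR smoke arrays and from 16.2 to 27.5 (median 20.1) on the LCR smoke arrays. Under sham no LCR array reached an HCR array, although LCR sham 0445 and 0446, at 80.7 and 78.2, stood far above the other 5. The differences were -1.99 ± 0.21 under sham (adjusted p = 1.6e-07) and -1.81 ± 0.16 under smoke (adjusted p = 2.9e-09). Scrn1, secernin, ran from 39.7 to 91.5 (median 63.3) on the HCR sham arrays and from 150.5 to 212 (median 188) on the LCR sham arrays with no overlap, and differed by 0.74 ± 0.10 under smoke (adjusted p = 1.7e-05). A second Scrn1 probe set gave 0.75 under sham.

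A run of 4 neighbouring genes in the RefSeq order rose together under sham, Ldaf1, Anks4b, Zp2 and Crym. Crym, a crystallin that binds thyroid hormone, ran from 27.01 to 66.9 (median 41.6) on the HCR sham arrays and from 85.9 to 124 (median 97.4) on the LCR sham arrays with no overlap and differed by 0.996 ± 0.13 under sham (adjusted p = 1.0e-05) and 0.95 ± 0.10 under smoke. Anks4b, a scaffold protein of brush borders, differed by 0.95 ± 0.18 and 1.38 ± 0.14. Ldaf1, a lipid droplet assembly factor, ran from 161 to 252 (median 164) on the HCR sham arrays and from 271 to 317 (median 302) on the LCR sham arrays, with no overlap, and differed by 0.64 ± 0.09 and 0.52 ± 0.07. Zp2, an egg coat protein gene at intensities of 9.63 to 30.7, differed by 0.43 ± 0.06 and 0.16 ± 0.05. All 4 were called under both exposures.

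Lower in LCR under both exposures were Cwc25, a splicing factor, with HCR sham arrays from 23.4 to 98.4 and LCR sham arrays from 14.5 to 19.4 (-1.13 ± 0.17 under sham, -0.85 ± 0.13 under smoke). Omd, osteomodulin, a matrix proteoglycan, ran from 146 to 223 (median 175) on the HCR sham arrays and from 65.5 to 126 (median 103) on the LCR sham arrays (-0.78 ± 0.16 and -0.86 ± 0.12). Cklf, a chemokine-like factor, ran from 109 to 180.1 (median 145) on the HCR sham arrays and from 67.4 to 97.1 (median 83.9) on the LCR sham arrays (-0.71 ± 0.10 and -0.59 ± 0.08). In each of these 3 genes no LCR sham array reached an HCR sham array. Other probe sets of Cklf were at -0.07 and -0.54.

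Trim16, a ubiquitin ligase (-0.86 ± 0.19 and -0.77 ± 0.15), Dnajc12, a co-chaperone (-0.76 ± 0.17 and -0.73 ± 0.13), and Nfe2l1, a factor of proteasome gene expression (-0.48 ± 0.06 and -0.34 ± 0.05), were lower under both exposures as well. The sham call of Dnajc12 ended without HCR sham 0432, HCR sham 0433 and LCR sham 0442 (adjusted p = 0.0715). Nfe2l1 ran from 727 to 939 (median 886) on the HCR sham arrays and from 565 to 681 (median 589) on the LCR sham arrays, with no overlap, but its other probe sets were at -0.08 and -0.15 and its call ended with the mean of the probe sets. Ooep, a gene of the oocyte, ran from 117 to 468 (median 177) on the HCR sham arrays and from 44.5 to 97.9 (median 61.3) on the LCR sham arrays, with no overlap (-1.33 ± 0.25 and -0.63 ± 0.19). Rnf40 (-0.83 ± 0.16 and -0.48 ± 0.12), Cyp2j4 (-0.51 ± 0.10 and -0.44 ± 0.08), Pla2g12a (-0.49 ± 0.12 and -0.42 ± 0.09), Retsat (-0.75 ± 0.21 and -0.53 ± 0.16) and Grik4 (-0.40 ± 0.06 and -0.19 ± 0.05) were also lower under both exposures. Retsat, a retinol saturase, lost its sham call without 0433, 0436, 0438, 0442, 0443 or 0445. Baat, which conjugates bile acids, rose by 1.04 ± 0.30 under sham and 0.75 ± 0.23 under smoke, and lost its sham call without any 1 array other than 0434, 0435, 0439, 0445 or 0446.

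Of the cytotoxic list, 9 of 27 were higher under smoke, against 4.61% over all genes, and 0 lower, with a median of 0.35. Klrg1 differed by 0.63 ± 0.13 (adjusted p = 0.00373), Ncr1 by 0.44 ± 0.10 (adjusted p = 0.00449) and Ccl5 by 0.84 ± 0.24 (adjusted p = 0.0294). Prf1 did not pass under smoke, at 0.89 ± 0.28 (adjusted p = 0.0501), with arrays from 56.5 to 259 (median 233) on the HCR smoke arrays and from 199.5 to 643 (median 406) on the LCR smoke arrays. Gzmb was at 0.52 ± 0.23 (adjusted p = 0.163).

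**Figure D5:**
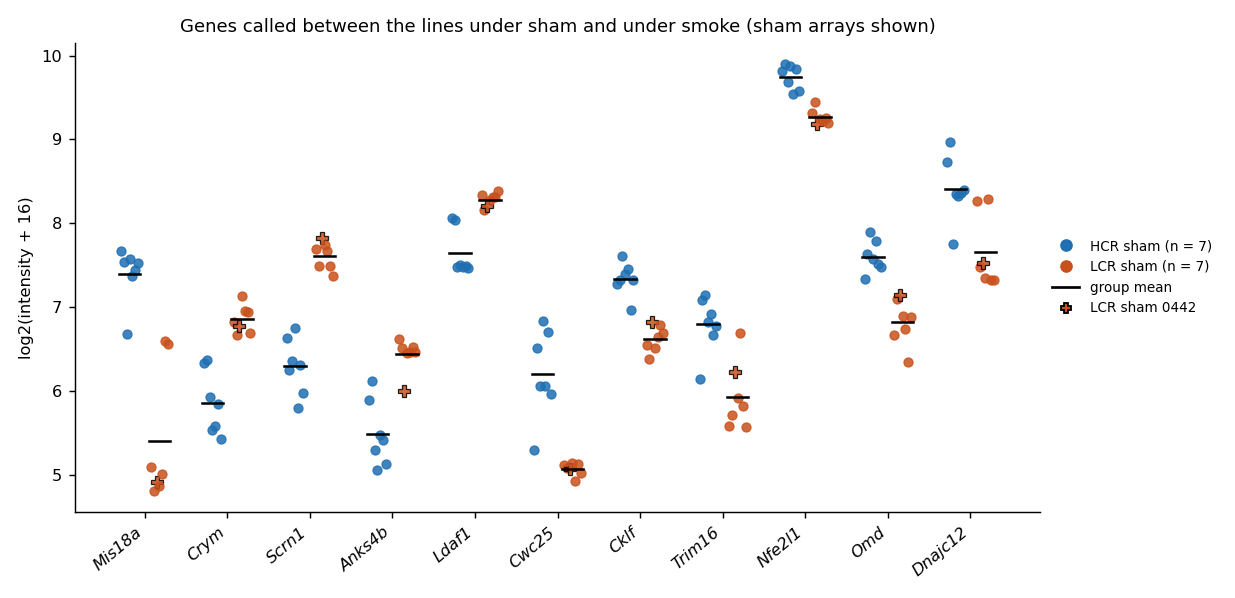
Log2(intensity + 16), on the 7 HCR sham and 7 LCR sham arrays, of 11 genes called in the same direction between the lines under sham and under smoke; points are arrays, bars are group means and the plus sign is LCR sham 0442. Mis18a, Crym, Scrn1, Ldaf1, Cwc25, Cklf, Omd and Nfe2l1 show no overlap between the lines.

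Whether a line difference itself changed with exposure was tested as the difference under smoke minus that under sham, which uses the same sham arrays. It passed for 266 genes (1.87%), 216 (1.52%) with a more positive and 50 (0.352%) with a more negative line difference under smoke. The count was 81 without HCR sham 0434 and 768 without HCR sham 0432, and it also moved by over 1.5 times without HCR sham 0435 (129), 0436 (107) or 0439 (518) and without LCR sham 0441 (114), 0442 (152) or 0445 (103). Genes picked for a call under sham were picked for a large sham difference, which by itself makes a smaller one under smoke likely. Of the sham calls, 190 of the 198 higher and 328 of the 333 lower were smaller in size under smoke. How much of the changes below comes from this choice was not tested. Of the genes named here 32 passed, and 13 of them passed in all 27 settings run. Prf1 did not pass (-1.11 ± 0.46, adjusted p = 0.182), nor did Gzmb (-0.84 ± 0.38, adjusted p = 0.229).

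Among the 13, Tgfa, a ligand of the epidermal growth factor receptor, ran from 127 to 173 (median 136) on the HCR sham arrays and from 80.9 to 104 (median 96.5) on the LCR sham arrays with no overlap. Its line difference was -0.54 ± 0.07 under sham and -0.01 ± 0.05 under smoke, a change of 0.53 ± 0.09 (adjusted p = 0.00221), and a second probe set gave -0.47 under sham. Pla1a, a phosphatidylserine lipase, ran from 760.5 to 964 (median 826) on the HCR sham arrays and from 459 to 642 (median 584) on the LCR sham arrays, with no overlap (-0.56 ± 0.06, against -0.15 ± 0.05 under smoke, change adjusted p = 0.00924). Chn2, beta-chimaerin, a regulator of Rac, ran from 74.2 to 108 (median 83.02) on the HCR sham arrays and from 114 to 158 (median 136) on the LCR sham arrays, with no overlap (0.53 ± 0.08 against 0.0023 ± 0.06). Pik3c2b, a lipid kinase, was 0.69 ± 0.10 against -0.13 ± 0.08, but its second probe set differed by -0.0030 under sham. Ucp2 (-0.31 against 0.12), Mgst2 (-0.34 against 0.08), Ctsh (-0.29 against 0.11), Trarg1 (-0.504 against -0.04) and Pigr (-0.21 against 0.05) had smaller line differences under smoke too.

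Fasn turned from -0.30 under sham to 0.29 under smoke, Fetub, fetuin B, from -0.49 to 0.30, Sec14l2, a lipid-binding protein, from -0.46 to 0.29, and Plet1, an epithelial surface protein, from -0.53 to 0.30 (not called under smoke, adjusted p = 0.0643). These 4 also belong to the 13. Fetub lost its sham call without 0434 or 0436. The largest change among the 32 was that of Fkbp5, 1.35 ± 0.33 (adjusted p = 0.0286), which did not pass without HCR sham 0434, 0435 or 0436 or LCR sham 0445. Its line difference under smoke was 0.33 ± 0.20 (adjusted p = 0.313).

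Lines bred apart can differ in the sequence under a probe set, so other probe sets of the called genes were compared. Of 159 called genes with a second probe set, 136 (85.5%) had the same sign there, against 65.4% of all genes with one, and 44 were called in the same direction and 2 in the opposite one. Second probe sets were also called for Gzmb (1.15), Cd247 (0.43), Zap70 (0.31), Col15a1 (0.50), Trim16 (-0.56) and Fasn (-0.44). Cd8a had further probe sets at 0.84 and 0.26, and Eomes at 0.57. Fkbp5 had one at -0.90 that was not called (adjusted p = 0.064). Those of Slc16a1 (-0.03), Car4 (-0.08) and Pdha1 (-0.07) and 1 of Klf15 (-0.08) differed by less than 0.1 and were not called. The Pdha1 one was bright, with a mean log2(intensity + 16) of 8.72. Those of Slc16a1 (4.64), Car4 (4.66) and Klf15 (4.50) were near the low end of the scale, where a difference can hardly show. A fit of the 14 sham arrays alone, with fewer arrays to estimate the spread, ended more of the calls of the 114 named genes. Of those whose calls outlasted the loss of any single array, 23 were not called there: Klrk1, Cd8a, Eomes, Txk, Lck, Zap70, Blk, Irf8, Ighl2, Clec3b, Ucp2, Ctsh, Pigr, Slc16a1, Sult1a1, Nupr1, Cst3, Cyp2j4, Dnajc12, Pdha1, Plet1, Sec14l2 and Kcnmb4. Genes such as Acot1, whose calls had also ended without 1 array, lost theirs in that fit too and are not among the 23. Without HCR sham 0433 and LCR sham 0442 the calls of Acot1, Baat, Car4, Cat, Ccl6, Crxos1, Cxcl14, Dgat2, Fasn, Fetub, Gfra3, Gla, Gpihbp1, Hp, Itgax, Klrk1, Mnda, Mrc1, Npc2, Pcp4l1, Pdk4, Plet1, Postn, Retsat, Serpinb1a, Sfta2, Sftpd, Slc47a1 and Vcam1 ended. Those of Dnajc12, Ifit1, Klf9, Pfkl and Suclg2 ended when HCR sham 0432 was left out as well.

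Called genes also lay side by side. Of the 198 genes higher in LCR, 21 (10.6%) had an adjacent measured gene called higher, against 2.63% of genes that were not called, and of the 333 lower, 26 (7.81%) had an adjacent gene called lower, against 4.55%. Besides the run with Crym, the runs of 3 were Klre1, Klrd1 and Klrk1 of the NK receptor cluster, Npc2, Isca2 and Ltbp2, and Cnpy3, Gnmt and Pex6. Near-identical members of the NK receptor and Cyp2j families can share a probe set's targets, and their values are uncertain to that extent.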

How the data were processed

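The authors' deposited table holds linear intensity values, 2.09 to 11558, for 31099 probe sets on 38 arrays. How they were summarised and normalized was not given in the sources used here. Values were analysed as log2(intensity + 16) as deposited. In the platform annotation 20826 probe sets had 1 symbol, 436 several and 9780 none, beside 57 controls, and the RefSeq gene table held the gene ID of 20758. The probe set with the highest mean over all arrays stood for its gene, giving 14217 genes.

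limma 3.58.1 (R 4.3.3) fitted the 4 group means over all 38 arrays (34 residual degrees of freedom, 36.22 with the prior), with Benjamini-Hochberg adjustment and a threshold of 0.05. The test was checked on simulated data with known changes and independent noise for each gene. Those data had no outlying arrays such as those found here, so the check does not cover their effect. Array measures were compared by exact permutation tests, whose smallest possible p was 0.000583. Correlations between sham arrays were 0.970 to 0.997, and at most 0.0514% of values were identical in 2 arrays. The number of arrays limits the precision. Python 3.11.15, NumPy 2.4.6, pandas 2.3.3 and matplotlib 3.10.9 were used for promoters and figures.

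Genes were named by rule: the 15 largest differences per direction among those called, the 10 smallest p-values per direction, up to 4 called members of each of 47 lists, 12 per direction called under both exposures, up to 10 called under sham with a changed line difference, and fixed genes. Il2rb, Cd8a, Eomes, Klrk1, Klre1, Cst7, Txk, Klf15, Mrc1, the uncalled list members and the genes under the other observations fall outside it, and their choice came after seeing their values. The members and lists were chosen with earlier results of these data known. Alternatives were quantile or median scaling, a filter on the lowest 25% of genes, pseudocounts of 1 and 64, other probe set rules, only the 14 sham arrays, trend and robust variance, array weights, quality covariates, and arrays left out.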

Additional observations from a re-analysis of the deposited data

Results flagged for a closer look

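Of 354 groups of 7 arrays tested, 37 had an array far from the rest by Dixon's rule, 13 of them LCR sham 0442, 7 HCR sham 0433 and 3 HCR sham 0432. Chance sets apart about 1 in 20 groups. Values below are log2(intensity + 16). HCR sham 0432 stood apart in Cst3 (11.79, against 12.03 to 12.15 on the others) and Txk (5.97, against 4.95 to 5.29 on the others). HCR sham 0433 stood apart in Ifit1 (4.74, against 6.003 to 6.71 on the others), Cyp2j4 (7.31, against 6.29 to 6.73 on the others), Cyp1a1 (5.02, against 4.47 to 4.68 on the others) and Cpt1b (8.38, against 5.09 to 6.10 on the others). HCR sham 0434 stood apart in Mis18a (6.69, against 7.37 to 7.68 on the others) and Abcb1a (7.54, against 6.69 to 6.99 on the others). HCR sham 0436 stood apart in Car4 (9.59, against 9.85 to 10.02 on the others) and Vegfa (10.23, against 10.51 to 10.66 on the others). HCR sham 0438 stood apart in Cat (10.76, against 10.42 to 10.56 on the others). HCR sham 0439 stood apart in Hp (7.21, against 7.76 to 8.18 on the others), Mgst2 (9.998, against 10.21 to 10.35 on the others) and Npc2 (12.02, against 12.28 to 12.44 on the others). LCR sham 0441 stood apart in Cd247 (7.29, against 6.71 to 6.92 on the others) and Il2rb (7.64, against 6.60 to 7.03 on the others). LCR sham 0442 stood apart in Blk (6.38, against 5.79 to 5.99 on the others), Slc16a1 (8.08, against 7.53 to 7.69 on the others), Anks4b (5.99995, against 6.46 to 6.63 on the others), Vegfa (10.41, against 10.66 to 10.83 on the others) and Cpt1b (7.62, against 5.22 to 5.54 on the others). LCR sham 0444 stood apart in Gzmb (7.18, against 7.70 to 8.04 on the others) and Cxcl14 (8.38, against 9.69 to 10.04 on the others).

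List means are log2 above the mean of all arrays. HCR sham 0432 stood apart in the list mean of adrenergic, renin and vascular tone (-0.15, against -0.01 to 0.07 on the others). HCR sham 0433 stood apart in the list mean of skeletal muscle markers (3.93, against -0.14 to 0.05 on the others), fat cell markers (1.83, against -0.23 to 0.22 on the others) and citrate cycle (0.42, against -0.10 to 0.11 on the others). HCR sham 0434 stood apart in the list mean of neutrophil markers (0.54, against -1.06 to -0.47 on the others). HCR sham 0439 stood apart in the list mean of complement and acute phase (-0.67, against -0.41 to -0.25 on the others). LCR sham 0442 stood apart in the list mean of alveolar type 1 cell markers (-0.0441, against 0.13 to 0.23 on the others), mucous and basal cell markers (0.67, against -0.41 to -0.20 on the others), heart muscle markers (3.25, against -0.72 to 0.45 on the others), mitochondrial respiratory chain (0.31, against -0.17 to 0.01 on the others), citrate cycle (0.27, against -0.12 to -0.0043 on the others), fatty acid oxidation (0.13, against -0.07 to 0.0029 on the others), mitochondrial biogenesis and dynamics (0.12, against -0.03 to 0.03 on the others) and glycolysis and lactate (0.11, against -0.26 to -0.17 on the others). Whether tissue beside the lung was in these pieces was not tested.

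For 32 named genes the line difference under smoke differed from that under sham (limma, adjusted p below 0.05). It was more negative under smoke, in log2, for Pcp4l1 (-1.05), Mnda (-0.998), Pik3c2b (-0.81), Cd247 (-0.62), Lck (-0.58), Chn2 (-0.53), Eomes (-0.51) and Vcam1 (-0.31). It was more positive for Pigr (0.25), Npc2 (0.29), Acad11 (0.30), Gla (0.33), Ccl6 (0.39), Ctsh (0.40), Pla1a (0.41), Mgst2 (0.42), Ucp2 (0.42), Ctss (0.44), Slc16a1 (0.46), Trarg1 (0.47), Pparg (0.48), Pnpla2 (0.51), Tgfa (0.53), Fasn (0.59), Mrc1 (0.62), Sec14l2 (0.75), Sfta2 (0.78), Fetub (0.79), Slc47a1 (0.81), Plet1 (0.82), Kcnmb4 (0.92) and Fkbp5 (1.35). Of these, 13 passed in all 27 settings: Pik3c2b, Chn2, Pla1a, Tgfa, Trarg1, Fasn, Pigr, Ucp2, Mgst2, Ctsh, Plet1, Fetub and Sec14l2.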

How the results depend on the processing

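No paired analysis was possible because array numbers are unique to each animal and run in blocks by group. Of the 114 named genes called under sham, 48 kept the call in every alternative that tested them (29, or 28 for the dimmest genes, which 1 filter left out), 66 lost it in at least 1 and 0 reversed. The 531 calls between the lines came to 816 with median-centred arrays, 233 in the fit of the 14 sham arrays, 946 with array weights and 830 with the interquartile range as a covariate, and to 314 to 830 with 1 array left out. The 198 higher calls came to 83 in the fit of the 14 sham arrays, 371 with array weights, 364 with the Gapdh and 314 with the Actb covariate, and to 132 to 371 with 1 array left out. The 333 lower calls came to 647 with median-centred arrays, 150 in the fit of the 14 sham arrays, 575 with array weights, 573 with the interquartile range covariate and 215 without HCR sham 0433 and LCR sham 0442, and to 182 to 459 with 1 array left out. Cytotoxic calls came to 15 to 17 of 27 with 1 array left out, 11 in the fit of the 14 sham arrays and 12 with the dimmest genes left out. The 266 changed line differences came to 629 with the Actb covariate and 552 with median-centred arrays. Chosen after seeing the data were array weights (1537), the Gapdh covariate (562), the fit without HCR sham 0433 and LCR sham 0442 (96), that also without HCR sham 0432 (501), and 1 array left out (81 to 768). The fit of the 14 sham arrays has fewer arrays and takes its spread from the sham animals alone. The cause of this and of the other shifts was not tested. Neither the Actb nor the Gapdh measure passed between the lines. Dim genes such as Klre1, Il6 and Zp2 lie near the low end of the intensities, where the log2(intensity + 16) scale compresses differences.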

Other observations

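Several genes with large differences were not called, and their arrays fell into separate levels within a line; they were chosen after their values were seen. Fam111a, a protease that restricts viral replication, differed by 2.69 under sham (adjusted p = 0.202, limma). HCR sham 0433, 0435, 0436 and 0439 had intensities of 13.7 to 17.4, the other 3 HCR arrays 1298 to 1837, and all 7 LCR arrays 887 to 1644. RT1-Ba, an MHC class II alpha chain, differed by 1.79 (adjusted p = 0.276) under sham and 3.28 (adjusted p = 0.0025) under smoke. Its HCR sham arrays lay at 79.7 to 134 on 4 arrays and 1879 to 2254 on 3, while LCR sham 0443 was at 89.4 and the other 6 at 1912 to 2678.

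The class I genes RT1-CE12 (1.36, adjusted p = 0.183) and RT1-CE10 (1.10, adjusted p = 0.179) were high on the same 3 LCR arrays, 0443, 0445 and 0446. RT1-CE12 was at 3410 to 5451 there and at 452 to 479 on the other LCR arrays, and RT1-CE10 at 1382 to 1873 against 231 to 244. No HCR sham array of RT1-CE12 exceeded 606. RGD1309362 (1.33, adjusted p = 0.274) was at 8.17 and 10.6 on HCR sham 0436 and 0439 and at 133 or more on every other sham array. MHC genes are near-identical in part, and the probe sets cannot tell a level from a sequence difference. What separates these levels was not tested.

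Scgb3a1, a secretoglobin of airway epithelium (1.53, adjusted p = 0.25), was highest on HCR sham 0432 at 1258 and LCR sham 0442 at 2925. Cyp2a3, an airway P450 (1.28, adjusted p = 0.35), was highest on the same arrays, at 1458 and 2758. Thrsp, a lipogenic gene (-1.25, adjusted p = 0.175), stood at 1436 on HCR sham 0433 and at 134 on 0432, against 18.8 or less on the other sham arrays. Car3, a carbonic anhydrase of fat and muscle (-1.05, adjusted p = 0.274), was at 1242 and 629 on the same arrays and at 159 or less on the others.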
